A study of Saccharomyces cerevisiae and Saccharomyces mikatae and Saccharomyces paradoxus with 13 samples.

Results

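The genes described here encode assembly factors of the large (60S) ribosomal subunit of budding yeast: 58 genes of the 6132 ORFs on the array. They were chosen by ORF identifier from a list of known factors and not by a measured value, but with earlier results of these data known. All 58 were found on the array, and 57 of them had enough values for a test in at least 1 group of arrays.

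In the nucleolus RNA polymerase I makes a long precursor of ribosomal RNA, and a large set of proteins that are not part of the finished ribosome folds, cuts and packs the portion that becomes the 60S subunit. These factors bind in an order, from early nucleolar particles through GTPases and a giant ATPase that strips other factors off, to export adaptors that carry the particle to the cytoplasm. In S. cerevisiae most of the genes are transcribed together with the rest of the ribosome biogenesis regulon, high in fast growth and low when growth slows, and mating pheromone holds haploid cells in G1.

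The series used 13 arrays of S. cerevisiae cDNA, each read in 2 colours for a sample and its own reference. The 3 alpha factor groups were a-type haploid cells in log phase in YPD at 30 °C, compared 60 min after 6 µM alpha factor with the same kind of cells before it: S. cerevisiae BY4741 (3 arrays), S. paradoxus derived from CBS432 (3 arrays) and S. mikatae derived from IFO 1815 (4 arrays). The mating group (3 arrays) was S. cerevisiae BY4741 and BY4742 mixed on a filter on a YPD plate for 90 min, compared with the same strains incubated unmixed and pooled only before RNA extraction. Each alpha factor group is 1 strain labelled wild type, and the submitters call the arrays of a species biological replicates.

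The log base of the deposited ratios is not stated in the sources used here, and it was taken as 2. Each value is thus read as a log2 ratio of the treated or mated sample over its reference, with −1 a 2-fold lower level. It was centred on the median of its array. A value therefore gives the change of a transcript relative to the other transcripts on that array. The direction is likely rather than certain, because the dye given for each channel is the opposite of that in the text on labelling. Read this way, the pheromone-induced genes FIG1 and KAR4 had means of 3.25 to 5.02 in each of the 4 groups. Of 5 such genes (with FUS1, PRM1 and AGA1), all 5 rose in S. cerevisiae and S. paradoxus, all 3 tested rose in mating, and 4 rose in S. mikatae, where AGA1 read 0.17. Arrays held values for 5678 to 5964 ORFs in S. cerevisiae with alpha factor, 4367 to 4777 in S. paradoxus, 4253 to 4304 in S. mikatae and 3616 to 3740 in mating. Of the 58 assembly factor genes, 56 to 57, 50 to 52, 51 to 53 and 37 to 39 had a value in the same order. RNA of S. paradoxus and S. mikatae was read with S. cerevisiae probes, and how far sequence mismatch alters those ratios was not tested. The reference of the alpha factor arrays was taken before treatment, so the effect of alpha factor and that of 60 further minutes in culture cannot be told apart. In these bulk samples, fewer cells of a type and less RNA per cell cannot be told apart either.

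After alpha factor most of the tested assembly factor genes fell in each of the 3 species, and none of them rose. In S. cerevisiae 41 of 57 tested genes fell at an adjusted p under 0.05 (limma, Benjamini-Hochberg adjustment over all genes tested), where 17.3% of all tested genes fell. In S. paradoxus 47 of 51 fell against 24.6% of all tested genes, and in S. mikatae 47 of 53 fell against 24.7%. The shares of all tested genes that rose were 16.3%, 23.9% and 23.3%. In mating, by contrast, 3 of 38 fell and 3 rose, while 20.2% of all tested genes fell and 19.4% rose. The median response of the tested members was −0.50 in S. cerevisiae, −0.76 in S. paradoxus, −0.58 in S. mikatae and −0.04 in mating, and the median of all tested genes lay between −0.0026 and 0.0042 in each group.

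The difference from mating was seen on every array. The median over the measured members was −0.50, −0.49 and −0.42 on the 3 S. cerevisiae alpha factor arrays and −0.84, −0.90 and −0.48 on the 3 S. paradoxus arrays. It was −0.58, −0.57, −0.66 and −0.63 on the 4 S. mikatae arrays and −0.07, −0.04 and −0.02 on the 3 mating arrays. All 10 alpha factor arrays thus lay below all 3 mating arrays, and the third S. paradoxus array lay with the S. cerevisiae arrays rather than with the other arrays of its own species. Without it the median over the tested S. paradoxus members was −0.88. Over the 30 members that had a value on all 13 arrays, the medians were −0.47, −0.43 and −0.37 in S. cerevisiae, −0.85, −1.01 and −0.47 in S. paradoxus, −0.56, −0.69, −0.67 and −0.60 in S. mikatae, and −0.08, −0.04 and −0.05 in mating.

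**Figure D1:**
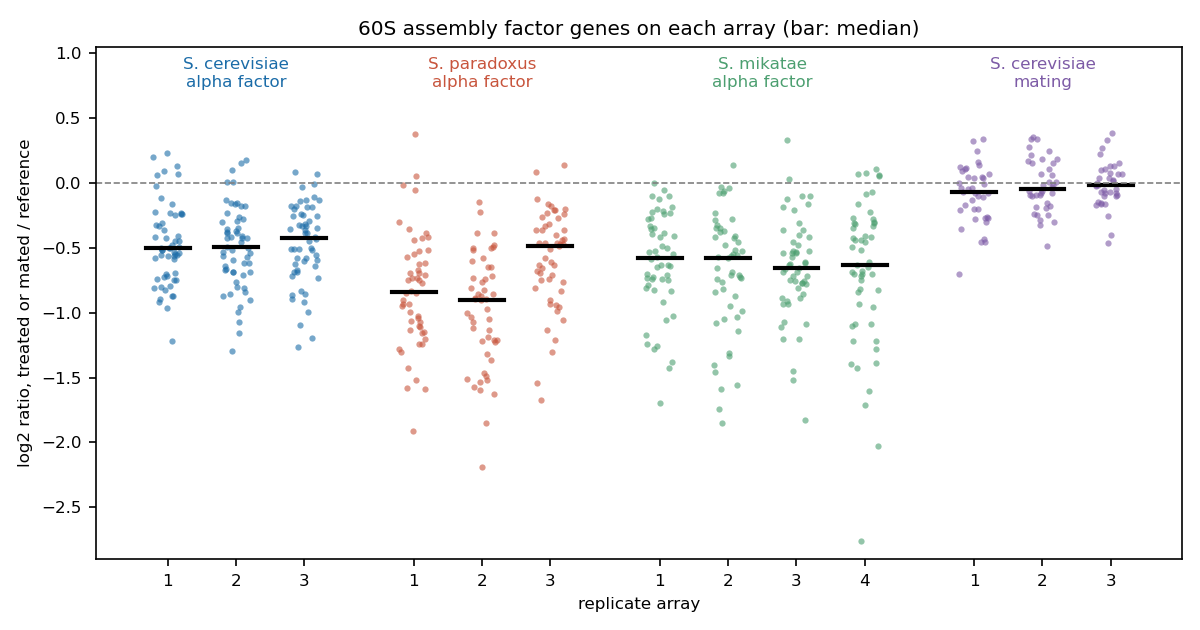
Log2 ratio of treated or mated sample over reference (vertical axis) for each measured 60S assembly factor gene (point) on each of the 13 arrays (horizontal axis), coloured by group, with the median as a black bar. The medians are −0.42 or lower on the 10 alpha factor arrays and between −0.07 and −0.02 on the mating arrays.

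The response was broad rather than carried by a few genes. Among members measured on every array of a group, 49 of 56 were below 0 on all S. cerevisiae alpha factor arrays, 48 of 50 on all S. paradoxus arrays and 45 of 50 on all S. mikatae arrays. The corresponding shares of all genes were 33%, 35.5% and 31.6%. In mating 11 of 35 members were below 0 on every array, against 34.7% of all genes, and 6 were above 0 on every array. Of the 50 members tested in all 3 species, 32 fell in all 3, whereas 9.89% of all genes tested in the 3 species did so. A further 12 fell in a pair of species, 5 fell in 1 species, and IPI3 fell in none. The mean was below 0 in all 3 species for 48 of these 50. The size of the fall was modest for most: at least 2-fold in 1 member in S. cerevisiae, 16 in S. paradoxus and 10 in S. mikatae, where 0.967%, 2.04% and 1.65% of all tested genes reached that size. None reached it in mating (0.997% of all tested genes). The counts of 1, 16 and 10 became 3, 7 and 8 when arrays were scaled to a common spread and 4, 10 and 9 after quantile normalization. Without the first, the second or the third S. cerevisiae array the count there was 3, 2 and 2, and with array weights it was 2.

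Members that were low in one species tended to be low in the others. Across members, mean responses of S. cerevisiae and S. paradoxus correlated with Pearson's r of 0.803 (51 genes), those of S. cerevisiae and S. mikatae with 0.71 (53 genes) and those of S. paradoxus and S. mikatae with 0.833 (50 genes). For S. cerevisiae alpha factor and mating r was 0.449 (38 genes). These are descriptions across genes, which are not independent replicates and share their probes, though the groups share no array.

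**Figure D2:**
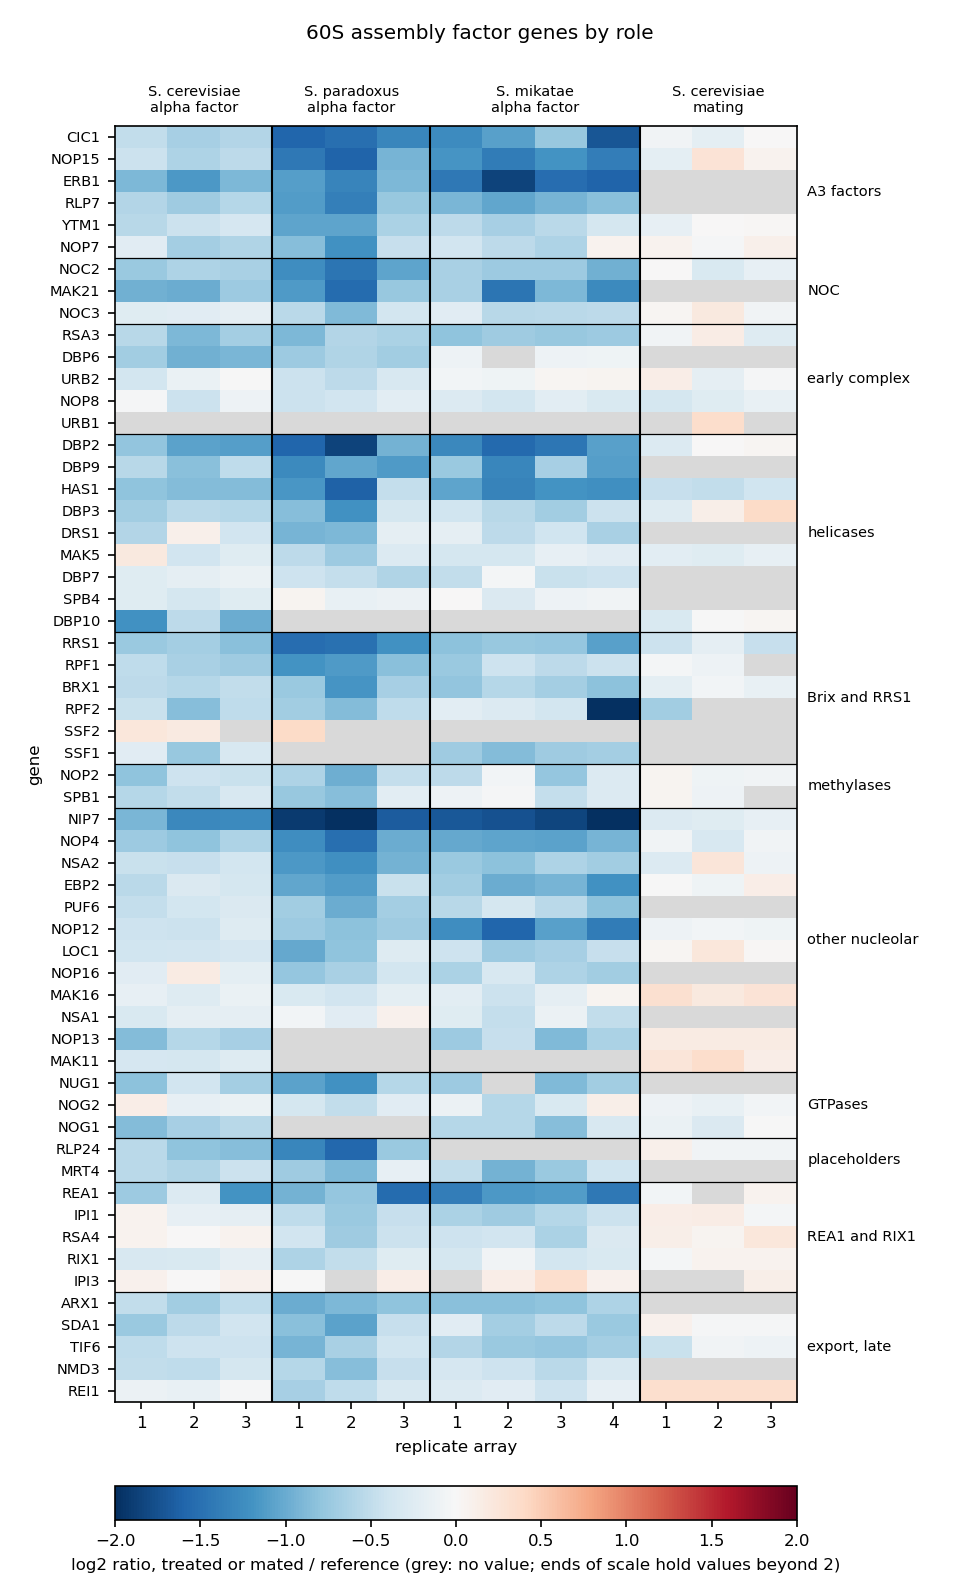
Log2 ratio (colour, blue lower and red higher than the reference) of the 58 genes (rows, grouped by role) on the 13 arrays (columns, grouped by species and treatment). Grey marks arrays with no value, and values beyond 2 on either side are drawn at the end of the scale. Most rows are blue in the 10 alpha factor columns and pale in the mating columns.

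The gene with the lowest mean in each of the 3 species was NIP7 (YPL211W), whose product is needed for processing of the 60S rRNA precursor in the nucleolus. Its log2 ratios were −0.91, −1.29 and −1.27 in S. cerevisiae, −1.92, −2.19 and −1.67 in S. paradoxus, and −1.70, −1.74, −1.83 and −2.03 in S. mikatae. On the mating arrays they were −0.27, −0.25 and −0.17. No array of S. paradoxus or S. mikatae overlapped those of S. cerevisiae, and the mating arrays lay above all of them. The mean of −1.16 ± 0.212 in S. cerevisiae (SD, n = 3) is a 2.23-fold lower level (adjusted p = 2.21e-06). In S. paradoxus the mean of −1.93 ± 0.261 (n = 3) is 3.8-fold lower (adjusted p = 9.11e-09), and in S. mikatae −1.82 ± 0.147 (n = 4) is 3.54-fold lower (adjusted p = 2.37e-09). NIP7 was the only member at least 2-fold lower in all 3 species, with DBP2 (−0.99) and ERB1 (−0.98) just short of that size in S. cerevisiae. DBP2 joined it when arrays were scaled to a common spread, after quantile normalization and with array weights, ERB1 without the third S. cerevisiae array, and both without the first. The mating mean of NIP7, −0.23, did not pass the test (adjusted p = 0.0835).

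The A3 factors are named for a cleavage site in the rRNA precursor near which they act. In S. cerevisiae, S. paradoxus and S. mikatae 6 of 6 fell, against 17.3%, 24.6% and 24.7% of all tested genes. The 6 factors are NOP7, ERB1 and YTM1, which form one complex, and CIC1, RLP7 and NOP15. NOP15 is an RNA-binding protein and RLP7 resembles ribosomal protein L7. The ERB1 (YMR049C) ratios were −0.89, −1.15 and −0.90 in S. cerevisiae, −1.10, −1.32 and −0.90 in S. paradoxus, and −1.42, −1.85, −1.52 and −1.60 in S. mikatae. Every S. mikatae array was thus below every array of the other species, and the mean there was 3.03-fold lower than the reference. The CIC1 (YHR052W) ratios were −0.50, −0.66 and −0.59 in S. cerevisiae, −1.58, −1.51 and −1.30 in S. paradoxus, −1.26, −1.08, −0.75 and −1.71 in S. mikatae, and −0.07, −0.19 and 0.00 in mating. For NOP15 (YNL110C) they were −0.42, −0.62 and −0.52, then −1.42, −1.60 and −0.93, then −1.17, −1.40, −1.20 and −1.39, and −0.20, 0.28 and 0.08 in mating. Both genes fell further in the other species than in S. cerevisiae, with no overlap between the arrays. The other members of the group had means of −0.50, −0.84 and −0.36 for NOP7, −0.44, −0.91 and −0.52 for YTM1, and −0.62, −1.08 and −0.93 for RLP7, in S. cerevisiae, S. paradoxus and S. mikatae. None of the 4 A3 factors tested in mating passed.

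The NOC proteins pair up to carry early and later particles through the nucleolus. MAK21 (also called NOC1) and NOC2 fell in all 3 species, and NOC3 fell in S. paradoxus (−0.60) and S. mikatae (−0.46) but did not pass the test in S. cerevisiae (−0.22, adjusted p = 0.086). NOC3 was below 0 on all 3 S. cerevisiae arrays, at −0.25, −0.23 and −0.19. The MAK21 (YDR060W) ratios were −0.96, −0.99 and −0.73 in S. cerevisiae, −1.13, −1.53 and −0.77 in S. paradoxus, and −0.64, −1.46, −0.91 and −1.28 in S. mikatae, so the 3 species overlapped. NOC2 (YOR206W) had −0.74, −0.62 and −0.64 in S. cerevisiae, −1.24, −1.47 and −1.05 in S. paradoxus, −0.64, −0.73, −0.72 and −0.95 in S. mikatae, and 0.00, −0.30 and −0.16 in mating. Its S. paradoxus arrays all lay below those of the other species.

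The earliest precursor holds a complex around URB1 that includes URB2, NOP8, RSA3 and the helicase DBP6, and its members differed in which species they fell in. URB1 had a value on a single mating array (0.34) and was tested nowhere. RSA3 (YLR221C) fell by similar amounts in the 3 species, with means of −0.72 ± 0.173, −0.70 ± 0.172 and −0.75 ± 0.046 (SD; n = 3, 3 and 4). The 95% interval of its difference from S. cerevisiae was −0.26 to 0.28 in S. paradoxus and −0.28 to 0.22 in S. mikatae. DBP6 (YNR038W) fell in S. cerevisiae (−0.70, −0.95 and −0.92) and in S. paradoxus (−0.73, −0.60 and −0.69). On the 3 S. mikatae arrays with a value it stood at −0.10, −0.10 and −0.08, above every array of the other species (mean −0.09, adjusted p = 0.294). URB2 fell in S. paradoxus (−0.43) and had means of −0.17 in S. cerevisiae and −0.01 in S. mikatae. Its 4 S. mikatae arrays read −0.05, −0.08, 0.03 and 0.06. NOP8 fell in S. paradoxus (−0.34), in S. mikatae (−0.29) and in mating (−0.25), with −0.18 in S. cerevisiae after alpha factor.

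The other DEAD-box helicases are enzymes that open RNA duplexes with ATP. In S. cerevisiae 6 of 9 of them fell, against 17.3% of all tested genes. In S. paradoxus and S. mikatae 7 of 8 fell in each, against 24.6% and 24.7%. DBP2 (YNL112W) was the lowest of them, at −0.79, −1.07 and −1.10 in S. cerevisiae, −1.59, −1.85 and −0.95 in S. paradoxus, −1.28, −1.56, −1.45 and −1.09 in S. mikatae, and −0.28, 0.01 and 0.04 in mating. Alpha factor arrays of the 3 species overlapped for this gene, and the mating arrays stood apart. HAS1 (YMR290C) read −0.80, −0.87 and −0.86 in S. cerevisiae, −1.16, −1.62 and −0.47 in S. paradoxus, and −1.06, −1.34, −1.20 and −1.22 in S. mikatae. DBP3 and DBP9 also fell in all 3 species, from −0.51 to −1.15. DBP7, DRS1 and MAK5 fell in S. paradoxus and S. mikatae, with −0.18, −0.29 and −0.14 in S. cerevisiae. SPB4 fell in S. cerevisiae only by the test (−0.28, against −0.07 in S. paradoxus and −0.11 in S. mikatae), but its differences between species did not pass (adjusted p = 0.204 and 0.318). SPB4 read 0.05, −0.15 and −0.12 in S. paradoxus, and 0.00, −0.29, −0.10 and −0.07 in S. mikatae. DBP10 had no value in S. paradoxus or S. mikatae, and in S. cerevisiae it read −1.21, −0.53 and −0.99. No helicase of this group passed the test for a difference between species.

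Brix-domain proteins bind rRNA, and RPF2 with RRS1 brings the 5S ribonucleoprotein into the particle. RRS1, BRX1 and RPF1 fell in all 3 species. RRS1 (YOR294W) read −0.75, −0.69 and −0.83 in S. cerevisiae, −1.52, −1.49 and −1.21 in S. paradoxus, −0.83, −0.76, −0.78 and −1.08 in S. mikatae, and −0.43, −0.19 and −0.46 in mating. S. paradoxus stood below the other species on every array. RPF1 (YHR088W) read −0.51, −0.64 and −0.72 in S. cerevisiae, −1.20, −1.14 and −0.84 in S. paradoxus, and −0.74, −0.41, −0.52 and −0.43 in S. mikatae, and was likewise lowest in S. paradoxus. BRX1 had means of −0.53, −0.86 and −0.72 in the 3 species.

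The partner of RRS1 could not be read as firmly. RPF2 (YKR081C) was −0.44, −0.86 and −0.50 in S. cerevisiae, −0.69, −0.87 and −0.51 in S. paradoxus, and −0.22, −0.28, −0.36 and −2.76 in S. mikatae. The fourth S. mikatae array lay far below the others, and the spread of RPF2 is shared by all groups of the fit. With that array, RPF2 passed in S. mikatae (−0.90 ± 1.24, n = 4, adjusted p = 0.0376, and 0.0501 without the first S. paradoxus array) and not in S. cerevisiae (adjusted p = 0.241) or S. paradoxus (0.151). Without it the mean in S. mikatae was −0.29, and the call of RPF2 in S. mikatae did not change. RPF2 then also passed in S. cerevisiae (adjusted p = 0.00111) and in S. paradoxus (0.000201). SSF1 fell in S. cerevisiae (−0.44) and S. mikatae (−0.74) and had no value in S. paradoxus. Its close copy SSF2 had 2 values in S. cerevisiae, both above 0, at 0.23 and 0.18 (mean 0.20, adjusted p = 0.18). On the first S. paradoxus array SSF2 read 0.38, its only value in that species and too few for a test. Sequences of the probes were not used, so cross-hybridisation between SSF1 and SSF2, or between RLP7 or RLP24 and the ribosomal protein genes they resemble, was not tested.

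NOP2 and SPB1 methylate the large-subunit rRNA. NOP2 fell in all 3 species, at −0.56, −0.69 and −0.41. SPB1 fell in S. cerevisiae (−0.46) and S. paradoxus (−0.60), with −0.22 in S. mikatae (adjusted p = 0.0932).

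Among the other nucleolar factors, with NIP7 counted, 9 of 12 fell in S. cerevisiae, 9 of 10 in S. paradoxus and 11 of 11 in S. mikatae. In the same order 17.3%, 24.6% and 24.7% of all tested genes fell. NOP12 (YOL041C), an RNA-binding protein, read −0.41, −0.42 and −0.25 in S. cerevisiae, −0.73, −0.82 and −0.71 in S. paradoxus, −1.24, −1.59, −1.09 and −1.40 in S. mikatae, and −0.11, −0.06 and −0.09 in mating. The 4 groups formed 4 separate steps with no overlap. NOP4, also an RNA-binding protein, fell to −0.72, −1.25 and −1.02 in the 3 species. NSA2 (YER126C) read −0.45, −0.46 and −0.36 in S. cerevisiae, −1.15, −1.22 and −0.94 in S. paradoxus, −0.74, −0.82, −0.61 and −0.70 in S. mikatae, and −0.27, 0.25 and −0.10 in mating.

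EBP2, LOC1 and PUF6 also fell in each species, from −0.37 to −0.96. NOP13 fell in S. cerevisiae (−0.87, −0.56 and −0.67) and S. mikatae (−0.73, −0.46, −0.89 and −0.63) and had no value in S. paradoxus. NOP16 fell in S. paradoxus (−0.59) and S. mikatae (−0.57), with −0.09 in S. cerevisiae. MAK16 had small falls in S. paradoxus (−0.30, −0.39 and −0.20; adjusted p = 0.062 without the second array) and in S. mikatae (−0.20, −0.43, −0.18 and 0.05), where it did not pass without the first, the second or the third S. mikatae array or the third S. cerevisiae array (adjusted p = 0.0503 to 0.222), and in S. cerevisiae it read −0.16, −0.26 and −0.14 (adjusted p = 0.088). NSA1 passed only in S. mikatae (−0.24, −0.48, −0.12 and −0.49), with −0.06, −0.22 and 0.08 in S. paradoxus and a mean of −0.22 in S. cerevisiae. The differences of S. mikatae from S. paradoxus and S. cerevisiae did not pass for NSA1 (adjusted p = 0.164 and 0.598). MAK11 fell in S. cerevisiae (−0.33, −0.35 and −0.26) and had no value in the other species.

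GTPases and placeholders act on the maturing particle. The GTPases NOG1 and NUG1 fell wherever they were tested, at −0.70 and −0.58 for NOG1 in S. cerevisiae and S. mikatae and at −0.63, −0.95 and −0.77 for NUG1 in the 3 species. The remaining GTPase, NOG2, fell in S. paradoxus (−0.36, −0.49 and −0.23) but had 0.13, −0.16 and −0.13 in S. cerevisiae and −0.12, −0.57, −0.31 and 0.11 in S. mikatae. NOG2 carries the snoRNA gene SNR191 within its locus in the S. cerevisiae reference annotation. RLP24 and MRT4 occupy sites later taken by ribosomal proteins. RLP24 (YLR009W) read −0.54, −0.81 and −0.85 in S. cerevisiae and −1.30, −1.57 and −0.74 in S. paradoxus, with no value in S. mikatae, and MRT4 had means of −0.52, −0.59 and −0.65.

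The ATPase REA1 (YLR106C, also called MDN1) strips other factors from the particle, and works with the RIX1, IPI1 and IPI3 complex and with RSA4. REA1 and RIX1 fell in all 3 species, REA1 from −0.73 to −1.27 and RIX1 from −0.27 to −0.45. IPI1 and RSA4 fell in S. paradoxus (−0.57 and −0.51) and in S. mikatae (−0.59 and −0.43), and stood near 0 in S. cerevisiae, at −0.09 for IPI1. The RSA4 ratios in S. cerevisiae were 0.06, 0.01 and 0.07, against −0.38, −0.72 and −0.43 in S. paradoxus and −0.42, −0.38, −0.63 and −0.30 in S. mikatae. IPI3 was the only member tested in all 3 species with no fall, and its values ran from −0.01 to 0.33: 0.09, 0.01 and 0.09 in S. cerevisiae, −0.01 and 0.14 in S. paradoxus, and 0.14, 0.33 and 0.08 in S. mikatae.

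The late factors SDA1, NMD3, ARX1 and TIF6 fell in all 3 species. NMD3 is the export adaptor of the 60S particle, ARX1 another export factor, and TIF6 keeps the particle from joining the small subunit. Means were −0.55, −0.79 and −0.55 for SDA1, −0.45, −0.63 and −0.40 for NMD3, −0.57, −0.90 and −0.78 for ARX1, and −0.44, −0.66 and −0.70 for TIF6. REI1, which releases ARX1 in the cytoplasm, fell in S. paradoxus (−0.67, −0.50 and −0.32) and S. mikatae (−0.28, −0.23, −0.42 and −0.16) and read −0.11, −0.16 and −0.03 in S. cerevisiae.

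**Figure D3:**
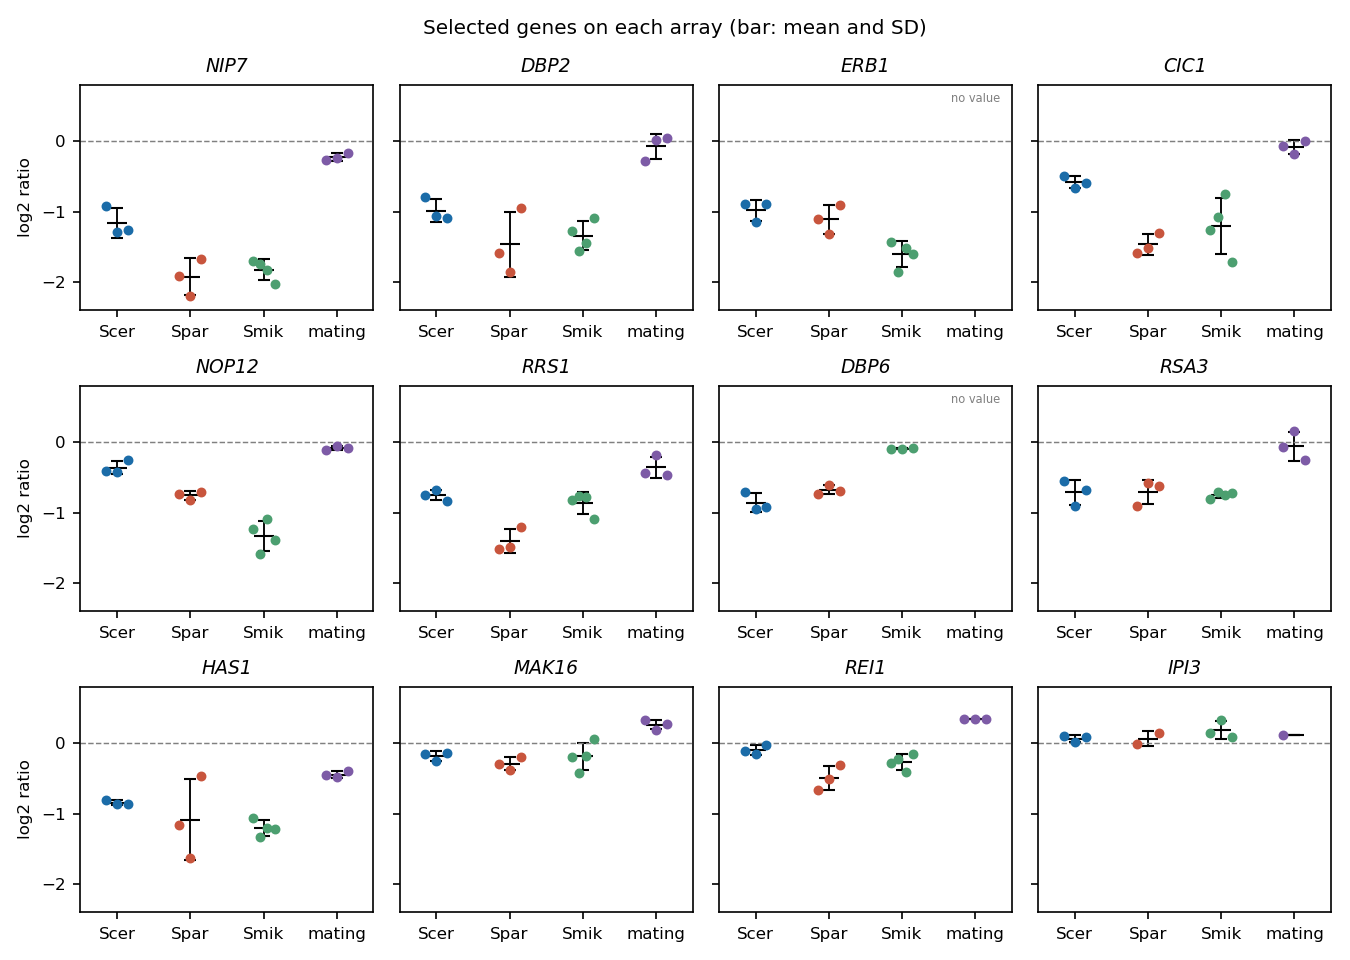
Log2 ratio (vertical axis) of 12 genes on each array (points), with mean and SD in black, for S. cerevisiae (Scer), S. paradoxus (Spar) and S. mikatae (Smik) after alpha factor and for S. cerevisiae mating. RSA3 means lie between −0.75 and −0.70 in the 3 species, DBP6 is near −0.09 in S. mikatae, and NOP12 forms 4 separate steps.

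The size of the fall differed between species for part of the genes. Of the 50 members tested in all 3 species, 18 passed the test for any difference among them, against 978 of 4084 genes (23.9%). When arrays were scaled to a common spread, 10 members and 907 of all genes passed. The share of members was then not above that of all genes. S. paradoxus had a lower ratio than S. cerevisiae for 16 of 51 members (7.25% of all genes) and a higher ratio for 0 (9.07% of all genes; limma). The lowest differences were −0.88 for CIC1 (SE 0.181, adjusted p = 0.00523), −0.80 for NOP15 (SE 0.161, adjusted p = 0.00466), −0.77 for NIP7 (SE 0.142, adjusted p = 0.00302), −0.68 for NSA2 (SE 0.125, adjusted p = 0.00301) and −0.65 for RRS1 (SE 0.121, adjusted p = 0.00307). The others were NOC2, RSA4, NOP4, NOP16, IPI1, YTM1, RLP7, RPF1, REI1, NOP12 and ARX1, from −0.59 to −0.34. Among the 50 members measured on every array of both groups, 22 had all S. paradoxus arrays below all S. cerevisiae arrays and 1 above, where 18.5% and 20% of all genes did.

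The spread of the arrays differed between these species as well. Ratios of all genes were wider in S. paradoxus, with a median absolute deviation of 0.351 to 0.384 per array, than in S. cerevisiae with 0.273 to 0.305. When arrays were scaled to a common spread, 5 members were lower and 1 was higher in S. paradoxus, and NIP7 (−0.34, adjusted p = 0.192) and RRS1 (−0.35, adjusted p = 0.0655) no longer passed. With quantile normalization 9 were lower. Of all genes, 342 were lower in the main fit, 285 when arrays were scaled and 314 with quantile normalization. Single arrays mattered as well: 9 or 8 members were lower without the first or the third S. cerevisiae array, 9 or 8 without the first or the second S. paradoxus array, and 24 without the third S. paradoxus array. For the cases of 9 or 8 members, 188, 192, 192 and 234 of all genes were lower, in the same order. With array weights the number was 27, beside 565 of all genes.

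S. mikatae had a lower ratio than S. cerevisiae for 9 of 53 members (5.49% of all genes) and a higher ratio for 1 (6.38%). The lower ones were NOP12 (−0.97, SE 0.109, adjusted p = 8.25e-05), NOP15 (−0.77, adjusted p = 0.00455), NIP7 (−0.67, adjusted p = 0.00516), ERB1 (−0.62, adjusted p = 0.0104), CIC1 (−0.62, adjusted p = 0.0302), EBP2, IPI1, RSA4 and NOP16. The higher one was DBP6 (0.76, SE 0.0995, adjusted p = 0.000739). All S. mikatae arrays were below all S. cerevisiae arrays for 16 of 50 members measured on every one and above them for 0, where 13% and 13.3% of all genes were. IPI1, RSA4 and NOP16 fell in both other species and not in S. cerevisiae, and their differences from S. cerevisiae passed in both. The difference of CIC1 did not pass when arrays were scaled (−0.48, adjusted p = 0.0516), after quantile normalization (−0.46, adjusted p = 0.0587), with only the arrays compared, or without the first S. mikatae array or any 1 of the S. cerevisiae arrays (adjusted p = 0.0548 to 0.109 for the single arrays). NIP7 did not pass when arrays were scaled (−0.46, adjusted p = 0.0663) or after quantile normalization (−0.48, adjusted p = 0.081), and ERB1 did not pass without the third S. cerevisiae array (−0.58, adjusted p = 0.0506).

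Between the other pair, S. mikatae had a lower ratio than S. paradoxus for 2 of 50 members (7.68% of all genes), NOP12 (−0.57, adjusted p = 0.00371) and ERB1 (−0.49, adjusted p = 0.028). The ratio was higher in S. mikatae for 7 of 50 (6.04% of all genes): DBP6 (0.58, adjusted p = 0.00359), RRS1 (0.54, adjusted p = 0.00601), RPF1 (0.53, adjusted p = 0.00812), NOC2 (0.49, adjusted p = 0.0119), URB2, YTM1 and NSA2. Among 47 members measured on every array of both groups, all S. mikatae arrays were below all S. paradoxus arrays for 2 and above them for 5 (13.9% and 11.8% of all genes). The difference of ERB1 did not pass without the first (adjusted p = 0.0807) or the third (0.0965) S. paradoxus array or the second (0.0598) or the fourth (0.0524) S. mikatae array, and that of NOC2 did not pass without the second S. paradoxus array (0.0578). The count of 7 was 4 without the first S. paradoxus array, 3 without the second, and 3 when arrays were scaled. In the same order 159, 196 and 188 of all genes were higher, against 247 in the main fit. With scaling, RRS1 (0.35, adjusted p = 0.0601) and RPF1 (0.35, adjusted p = 0.0992) were among those that no longer passed. The 3 contrasts between species share their arrays and are not independent.

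**Figure D4:**
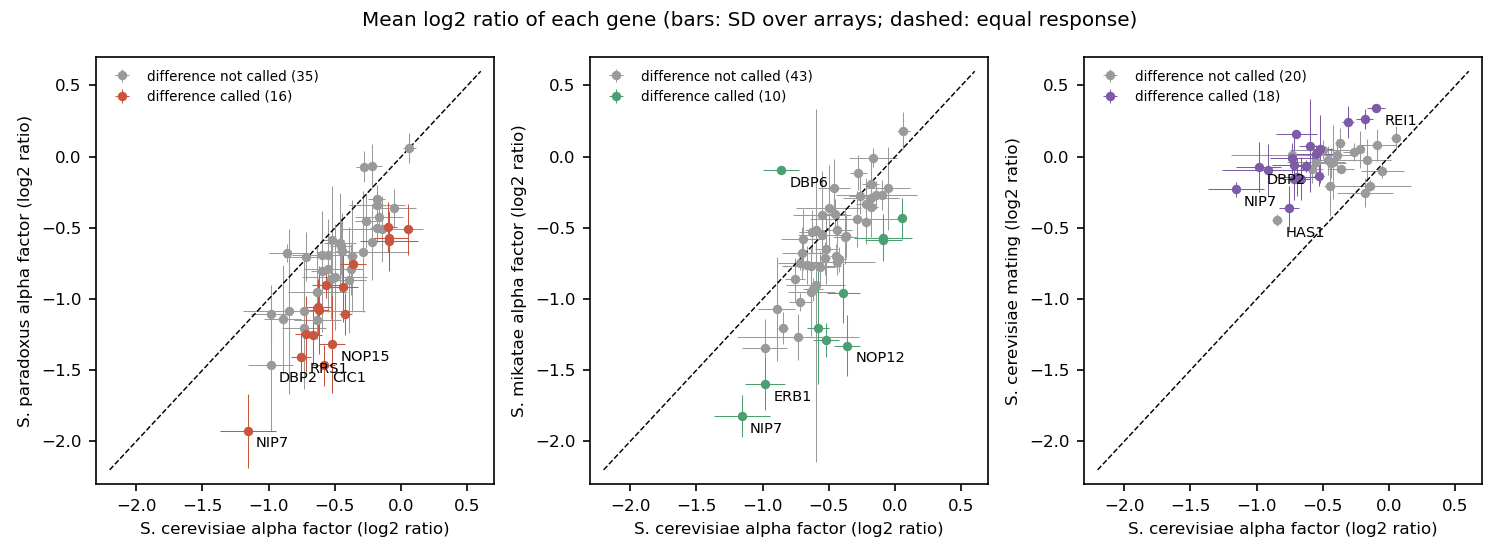
Mean log2 ratio of each gene in S. cerevisiae after alpha factor (horizontal axis) against its mean in S. paradoxus, S. mikatae and S. cerevisiae mating (vertical axes, left to right), with SD bars, the line of equal response dashed and genes with a called difference in colour. Called genes lie below the line in S. paradoxus (16), mostly below it in S. mikatae (9 of 10) and above it in mating (18).

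Few assembly factor genes changed in mating. Of the 29 members that fell in S. cerevisiae after alpha factor and were tested in mating, 2 fell in mating and 1 rose. Of all genes tested in mating, 20.2% fell and 19.4% rose. HAS1 read −0.46, −0.49 and −0.40 (mean −0.45, adjusted p = 0.0238), RRS1 averaged −0.36 (adjusted p = 0.0047), and NOP8 read −0.36, −0.25 and −0.15 (adjusted p = 0.0239). The next lowest, NIP7 and TIF6, did not pass, and TIF6 read −0.45, −0.07 and −0.10, with 1 array below the others. The 3 genes that rose were REI1 with 0.34 on each array (SD 0.00307, adjusted p = 0.00269), MAK16 with 0.33, 0.19 and 0.27 (adjusted p = 0.0196) and MAK11, a factor of early 60S assembly, with 0.25, 0.35 and 0.13 (adjusted p = 0.0291). The REI1 locus overlaps SLM6 in the reference annotation, and the SLM6 probe read 0.02 in mating. These small counts depended on single arrays: without the first mating array 1 member fell and 1 rose, and without the second 1 fell. Of all genes, 588 fell and 511 rose without the first and 489 fell without the second. In the main fit 750 fell and 719 rose. HAS1 did not pass without any 1 of the 3 mating arrays (adjusted p = 0.0694 to 0.0985), NOP8 and MAK11 without the first or second (0.083 to 0.161), and MAK16 without the first or the third (0.103 and 0.0744). A further 20 members had too few values in mating to be tested, among them ERB1, RLP7, MAK21, DBP6 and the export factors NMD3 and ARX1.

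Set against alpha factor in the same species, 18 of 38 members had a higher ratio in mating (8.63% of all genes; limma) and 0 had a lower one (7.37% of all genes). The largest differences were 0.93 for NIP7 (SE 0.142, adjusted p = 0.00085), 0.91 for DBP2 (SE 0.196, adjusted p = 0.00797), 0.86 for NOP13 (SE 0.122, adjusted p = 0.000851), 0.82 for DBP10 (SE 0.181, adjusted p = 0.0185) and 0.72 for RLP24 (SE 0.186, adjusted p = 0.0258). Mating ratios of NOP13 were 0.16, 0.17 and 0.16, those of DBP10 −0.30, −0.01 and 0.04, and those of RLP24 0.11, −0.07 and −0.07. For 28 of the 35 members measured on all 6 arrays, each mating array was above each alpha factor array, where 20.6% of all genes showed this, and for 0 each was below (19.7%). The count of 18 was 28 after quantile normalization, 11 without the third S. cerevisiae alpha factor array, and 11, 10 and 10 without the first, the second and the third mating array. In the same order 418, 160, 216, 208 and 212 of all genes were higher, against 315 in the main fit. DBP10 and RLP24 did not pass without the third S. cerevisiae alpha factor array or the second or the third mating array, and RLP24 not without the first mating or the second alpha factor array either (adjusted p = 0.0573 to 0.0886). These groups also differ in incubation time (90 and 60 min), in a filter against liquid culture, in the cells (both mating types or a cells) and in the reference, and these cannot be told apart.

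Genes of neighbouring steps, listed from general knowledge, gave a frame for these values. Of all tested genes, 17.3%, 24.6% and 24.7% fell after alpha factor in S. cerevisiae, S. paradoxus and S. mikatae. The shares that rose were 16.3%, 23.9% and 23.3%. In mating 20.2% of all tested genes fell and 19.4% rose. Of 32 other factors of 60S assembly, 21 fell and 1 rose in S. cerevisiae after alpha factor (median −0.37), 24 fell and 2 rose in S. paradoxus (−0.43), and 19 of 31 fell and 1 rose in S. mikatae (−0.28). In mating 1 of 24 fell, the ATPase AFG2 (−0.42), and 4 rose, with ECM1 highest (0.68). Of the small subunit processome, the particle that matures the other ribosomal subunit, 28 of 54, 43 of 50 and 41 of 51 fell in the 3 species, with medians of −0.27, −0.60 and −0.42. In the same order 1, 1 and 2 rose, with UTP7 highest in S. cerevisiae (1.02) and S. paradoxus (0.54) and UTP20 highest in S. mikatae (0.69). In mating 3 of 30 processome genes fell and 4 rose (median 0.00). RNA polymerase I genes fell in 3, 5 and 5 of 7 cases, led by the subunit gene RPA49 (−0.61, −1.01 and −0.84), and in 0 of 5 in mating, where 2 rose. After alpha factor 1 rose in S. cerevisiae, the subunit gene RPA14 (0.68), 1 in S. paradoxus, the initiation factor gene RRN3 (0.73), and 0 in S. mikatae.

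The structural proteins of the same subunit stood near 0 as a list. The list of 60S ribosomal protein genes was taken by gene name and also holds RPP1, which encodes a subunit of RNase P. Of this list, 2 of 78 fell and 1 rose in S. cerevisiae after alpha factor, and 5 of 43 fell and 1 rose in S. paradoxus. In S. mikatae 4 of 41 fell and 1 rose, and in mating 5 of 58 fell and 5 rose. RPP1 was 1 of the 5 that fell in S. paradoxus (−0.38, limma adjusted p = 0.0132). The medians of the list were −0.04, −0.03, 0.02 and 0.00. Most genes of this list exist as near-identical pairs whose probes may read both copies. On the 3 S. cerevisiae alpha factor arrays, 7, 13 and 10 probes of the list had exactly the value of another probe. Nearly equal values also occurred between genes that are not a pair, with S. cerevisiae means of −0.137514 for RPL28 and −0.137518 for RPL9A. The counts and medians of this list thus rest partly on repeated values, and the cause was not tested. Of 11 regulators of ribosome genes, IFH1 (−0.54, −0.98 and −0.78) and FHL1 (−0.43, −0.71 and −0.51), which act together at ribosomal protein promoters, fell in all 3 species, and FHL1 also fell in mating (−0.25). In all, 2, 5 and 4 regulators fell and 1, 4 and 1 rose in the 3 species, of 11, 10 and 9 tested. The shares that fell were 18.2%, 50% and 44.4%, beside 17.3%, 24.6% and 24.7% of all tested genes. In S. cerevisiae the share was thus near that of all genes. In mating 3 of 6 regulators fell with none rising, where 20.2% of all tested genes fell.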

How the data were processed

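Total RNA was labelled by the indirect amino-allyl method and hybridised to S. cerevisiae cDNA arrays, per the labels' protocols. The authors' deposited table holds 1 log2 ratio per ORF and array. Scanner, background correction, normalization within arrays, genome build, log base and how values came to be missing: not given in the sources used here. Ratios were taken as channel 1 over channel 2 in log2. Deposited array medians were −0.00931 to 0.00805, and every array was then shifted to a median of 0. Because the tables give ratios only, spot intensities and the depth of signal are unknown, and the number of arrays limits precision. The S. cerevisiae reference gene table matched 5665 ORFs, of which 43 needed a dash in the identifier. The other 467 are named by ORF.

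One limma 3.58.1 fit (R 4.3.3, statmod 1.5.0) took all 13 arrays with a mean per group. Group means were tested against 0, differences by contrasts and any difference among species by a moderated F test, where each group compared had 2 or more measured arrays for the gene. Adjustment was by Benjamini-Hochberg over all genes tested, at 0.05. The fit was tested on simulated data. Arrays are called biological replicates in the labels. Whether replicate arrays had separate reference samples is not stated in the labels, so the p-values may cover only part of the variation of the reference. The 18 pairs of arrays with the same replicate number in different groups correlated at −0.241 to 0.165 over 2194 genes. The other 45 pairs of arrays from different groups correlated at −0.303 to 0.351, so the numbers were not taken as pairs. Correlation between arrays of different groups was not modelled in the main fit.

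The members and the other lists were chosen with earlier results of these data known, so counts are given beside those of all genes and no list was tested. Any member could be named. Values on every array were given for the 5 lowest and 3 highest members of each group, the 5 largest called differences of each contrast and members that rose, among those measured on every array concerned. Array values were also given for genes with other patterns (NOC3, RPF2, DBP6 and others) chosen after their values were seen. For ARX1 only single values were given. From other lists the lowest and highest called genes could be named. Alternatives were array weights, robust eBayes, a fit of the compared arrays alone, a fit of genes with values on all 13 arrays, no centring, a common spread, quantile normalization, a block for the replicate number, and each array left out in turn. Promoter and protein sequences were not used here.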

Additional observations from a re-analysis of the deposited data

Results flagged for a closer look

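In S. mikatae, the only group of 4 arrays, 3 of 50 assembly factor genes had 1 array that stood apart by Dixon's test, which chance gives in about 1 of 20 groups. RPF2 read −2.76 on the fourth array, and the nearest other value was −0.36. NOC3 read −0.22 on the first array, with −0.52 nearest. ARX1 read −0.61 on the fourth array, with −0.81 nearest. These are values of single spots on single arrays, and their cause was not tested.

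The response to alpha factor differed between species by the contrast itself for the following genes. S. paradoxus was lower than S. cerevisiae for CIC1 (−0.88), NOP15 (−0.80), NIP7 (−0.77), NSA2 (−0.68) and RRS1 (−0.65). S. mikatae was lower than S. cerevisiae for NOP12 (−0.97), NOP15 (−0.77), NIP7 (−0.67), ERB1 (−0.62) and CIC1 (−0.62), and higher for DBP6 (0.76). S. mikatae was lower than S. paradoxus for NOP12 (−0.57) and ERB1 (−0.49), and higher for DBP6 (0.58), RRS1 (0.54), RPF1 (0.53) and NOC2 (0.49). With arrays scaled to a common spread, the differences between S. mikatae and S. paradoxus no longer passed for RRS1 (adjusted p = 0.0601) and RPF1 (adjusted p = 0.0992). The same scaling ended the calls of NIP7 (adjusted p = 0.192) and RRS1 (0.0655) between S. paradoxus and S. cerevisiae and of NIP7 (0.0663) and CIC1 (0.0516) between S. mikatae and S. cerevisiae. In all of these the probes were those of S. cerevisiae, and the part of probe mismatch was not tested.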

How the results depend on the processing

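No direction was reversed under any alternative. Leaving out each array gave 34 to 42 members that fell in S. cerevisiae after alpha factor, 45 to 48 in S. paradoxus and 43 to 48 in S. mikatae, with 0 that rose in each. In mating 1 to 3 fell and 1 to 3 rose. Members lower in S. paradoxus than in S. cerevisiae numbered 8 to 24, lower in S. mikatae than in S. cerevisiae 6 to 9, lower in S. mikatae than in S. paradoxus 1 to 2 and higher 3 to 9, higher in mating than with alpha factor 10 to 25, and different among species 12 to 25. Scaling arrays to a common spread gave 5 members lower and 1 higher in S. paradoxus than in S. cerevisiae, 3 higher in S. mikatae than in S. paradoxus and 10 different among species. Quantile normalization gave 9 lower in S. paradoxus than in S. cerevisiae, 28 higher in mating than with alpha factor, and a median in S. cerevisiae of −0.57. Restricting the fit to genes measured on all 13 arrays left 30 members, of which 21, 30 and 29 fell in the 3 species, with 0 higher in S. mikatae than in S. cerevisiae, 1 lower in S. mikatae than in S. paradoxus and a median of −0.44 in S. cerevisiae. Array weights gave 27 members lower in S. paradoxus than in S. cerevisiae. With the replicate block the counts of falls were 41, 47 and 47 in the 3 species, 12 members were lower in S. paradoxus than in S. cerevisiae and 16 were higher in mating. Counts over all genes also changed under several of these alternatives, and the cause of these shifts was not tested. RPF2 in S. mikatae did not pass with array weights (−0.56, adjusted p = 0.0812) or with only the arrays compared (adjusted p = 0.0889). With only the arrays compared, RPF2 passed in S. cerevisiae (0.0124) and S. paradoxus (0.0044), NIP7 passed in mating (−0.23, 0.0347) and MAK16 did not pass in S. mikatae (0.106). Missing values in S. paradoxus, S. mikatae and mating leave 7, 5 and 20 members untested there.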
